A study of Rattus norvegicus with 5 samples.

Results

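The proteasome is the barrel-shaped protease that degrades proteins tagged with ubiquitin. Its subunit genes were read here on 5 one-colour arrays of BRL-3A cells, a cell line derived from rat liver. A gene was taken as a member when its rat symbol began with Psm, one of the letters a to g and a number; Psmb8, Psmb9, Psmb10, Psme1 and Psme2, the interferon-inducible genes, were kept apart and are described beside the members. The pattern matched 43 rat symbols in the RefSeq table, and 39 of them had at least 1 named probe, so that the members were 39 of 15167 named genes and 45 probes. Psmb11, Psmd11, Psmg1 and Psmg3 are not analysed here. The members fell into 15 genes of the 20S core (8 of the alpha ring and 7 of the beta ring), 16 of the 19S cap (9 of the base and 7 of the lid), 5 assembly chaperones, and 3 genes for activators and an inhibitor.

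As background, the core is a stack of rings whose beta subunits carry the protease sites and whose alpha subunits form the gate. The cap binds ubiquitin chains, removes them, and unfolds the substrate with a ring of ATPases. Chaperones that are not part of the finished particle help to build both. In mammalian cells the subunit genes are known to be transcribed together by Nfe2l1, a membrane-anchored transcription factor that becomes active when proteasome activity is short. Tmub1 encodes a membrane protein that carries a ubiquitin-like domain and takes part in protein degradation at the endoplasmic reticulum.

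Each of the 5 groups had 1 array. Cells received a lentivirus that overexpressed Tmub1 (overexpression), the negative control virus of that construct (overexpression negative control), a lentivirus that knocked Tmub1 down (knockdown), its own negative control virus (knockdown negative control), or no virus (normal). RNA was taken 48 h after transduction. The sequences of the viral constructs were not used here. Every array is numbered replicate 1, so no p-value can be given and any difference holds for these arrays. The number of arrays limits the precision of every value. In a bulk RNA measurement, fewer cells of a type and less RNA per cell cannot be told apart.

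Levels are the log2 of the scanner's processed signal minus the 75th percentile of that array, so 0 is the 75th percentile of the probes, and a level is compared only between arrays and never between probes. Intervals printed beside a difference are 95% intervals from the scanner software's own error for the spots, and they leave out all variation between cultures. A gene was called higher or lower at a 2.5-fold difference, the fold named in the design text of the series.

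The targeted gene was checked first. Tmub1 had a level of 0.44 on the overexpression array, 0.37 on its negative control, -1.42 on the knockdown array, 0.45 on the knockdown negative control and 0.08 on the normal array. The knockdown array therefore lay 1.87 below its control on the log2 scale (3.65-fold lower; 95% interval -2.27 to -1.47), while the library labelled overexpression lay within 0.07 of its own control (95% interval -0.33 to 0.47). Directions below that involve the library labelled overexpression rest on its label alone, and whether its probe lies within the part that the construct carries was not tested.

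The arrays also differed in ways that the labels do not give. Median processed signal was 143.9 on the overexpression array against 116.4 on its negative control, 356.2 on the knockdown array against 159.7 on its negative control, and 329.4 on the normal array. The 4 transduced arrays were scanned in 1 session and the normal array in another, so scan session and absence of virus cannot be told apart. Of 4 fast muscle markers, all 4 were well above background on the 4 transduced arrays, and 3 on the normal array. Their log2 summed level was 3.83 to 4.10 on the transduced arrays, against -4.10 on the normal array. All 3 measured leukocyte markers were likewise well above background on the 4 transduced arrays, and 1 on the normal array. Their log2 summed level was 2.45 to 2.95, against -5.23 on the normal array. Of 3 endothelial markers, Pecam1 had levels of -2.83 to -1.74 on the transduced arrays, against -7.15 on the normal array. Cdh5 (-2.15 to -1.39, normal -1.62) and Kdr (-0.28 to 1.74, normal 1.64) did not differ in that way. Markers of the hepatocyte, the cell type the labels give, were above background for 5 to 7 of 8, with a median level of -5.73 to -3.97; Alb, Ttr and Apoa1 were above it on only 2 arrays each. The exception was Tf, the iron carrier transferrin, with levels of 0.32, 0.49, -0.56 and 0.52 on the overexpression array, its negative control, the knockdown array and its negative control, against -3.76 on the normal array. The log2 summed level of the 8 was 0.79, 0.89, -0.07, 0.89 and -0.13 on the 5 arrays in that order, the normal array last. All 6 mesenchymal markers were bright on every array (median level 4.99 to 5.75).

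All 39 members were well above background on all 5 arrays, so no member was lost to a filter on low values and no difference is a bound. A member's level varied over the arrays by between 0.53 (Psmb3) and 2.29 (Psma8) on the log2 scale. For 6 members (Psma5, Psmb2, Psmd6, Psmd12, Psme3 and Psme4) the probe was printed in replicate, with 8 to 10 usable spots per array, and the SD between spots was 0.03 to 0.17 on the log2 scale. For 17 members the RefSeq table lists pseudogenes named after them. Psmg4 is among the 17, and Psmd7 and Psma8 are not. The probes were not compared with the pseudogenes, so whether the signal of the 17 comes from the gene alone was not tested.

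**Figure D1:**
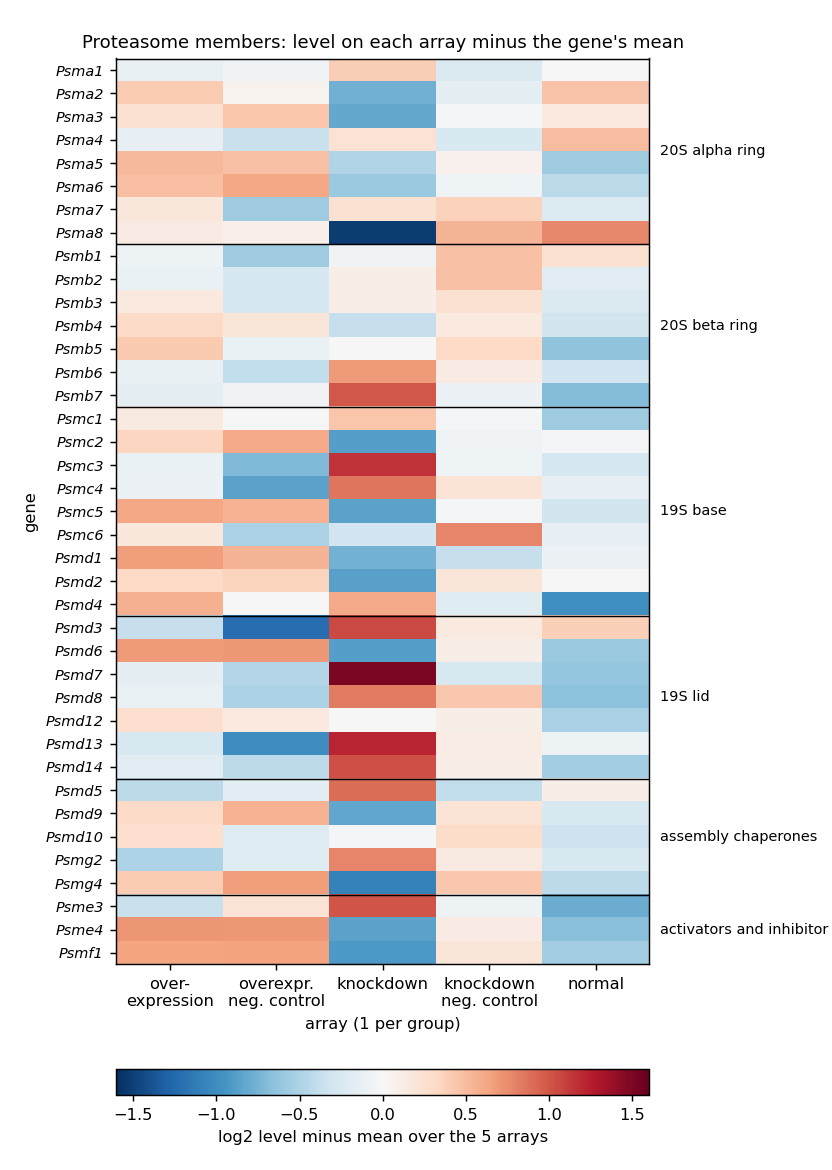
Level of each of the 39 members (rows, by role) on each of the 5 arrays (columns, 1 per group), as the log2 level minus the gene's mean over the 5 arrays; red is above the mean and blue below it. The knockdown column holds the strongest colours of both signs, from -1.52 for Psma8 to 1.51 for Psmd7.

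The members did not move as a block on any array, and the knockdown array was the one that stood apart. On the brightest probe of each gene, it held the highest level of 15 members and the lowest level of 14 members. For these counts the share over all genes was not computed. The dimmer probes of Psmd9, Psme4 and Psmf1 were instead highest on the knockdown array (1.00, 1.37 and -1.10). The second probes of Psma8 and Psmg4 were lowest on it, as were their brightest probes. Of the 39 members, 10 lay at least 1.5-fold above all 4 other arrays on the knockdown array, and 7 at least 1.5-fold below all of them. Among the 10684 genes well above background on all arrays, the shares were 13.4% above and 18.1% below. The 10 members above were Psmb7, Psmc3, Psmc4, Psmd3, Psmd5, Psmd7, Psmd13, Psmd14, Psme3 and Psmg2. The 7 below, on the brightest probes, were Psma2, Psma3, Psma8, Psmc2, Psmd2, Psmd9 and Psmg4. The overexpression array had no member apart from the other 4 in either direction, where 0.655% of all genes lay above and 0.646% below. The normal array had 1, Psmd4, the ubiquitin receptor of the cap, which lay below the rest, where 12.4% of all genes lay above and 6.4% below. Psmc4, Psmd3 and Psmd13 lay below the rest on the overexpression negative control (all genes 1.55% above and 4.89% below), and Psmc6 above the rest on the knockdown negative control (1.77% and 1.32%). Across the 39 members, the knockdown array correlated with the other arrays at Pearson's r of 0.82 to 0.86. The pairs among the other 4 arrays gave 0.95 to 0.99. Over all probes well above background on both arrays of a pair, r was 0.91 to 0.94 with the knockdown array. It was 0.94 to 0.99 among the other 4. The points share the probes' own brightness, and the values are a description only.

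In knockdown cells, 3 members were past 2.5-fold against the knockdown negative control. Psmd7, a lid subunit that pairs with the cap's deubiquitinase, rose 3.41-fold; Psma8, an alpha-ring subunit known from the testis proteasome, fell 4.18-fold; and Psmg4, a chaperone of alpha-ring assembly, fell 2.84-fold. The share of members past the threshold was 7.69%, against 18.7% of the 12656 genes that could be called (8.53% higher and 10.1% lower). At 1.5-fold, 12 members were higher and 12 lower, together 61.5% of the members, against 55.1% of all genes (22.0% higher and 33.1% lower).

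The promoter windows of those 3 members are printed here because they are the genes past the threshold. Each runs from 250 bases before to 50 after the annotated start, 5′ to 3′ on the gene's strand, from RefSeq on build GRCr8. Capitals mark matches to TGANNNNGC, CCAAT (the NF-Y box) or GGGCGG (the Sp1 box), searched on both strands. TGANNNNGC is a loose pattern for the antioxidant response element, and a match need not be such an element. Nfe2l1 and Nfe2l2 bind sites of that kind with a small Maf protein. The Psmd7 window lies at chr19:52411267-52411566 on the minus strand, the Psma8 window at chr18:6137976-6138275 on the plus strand, and the Psmg4 window at chr17:30923324-30923623 on the minus strand.
Psmd7: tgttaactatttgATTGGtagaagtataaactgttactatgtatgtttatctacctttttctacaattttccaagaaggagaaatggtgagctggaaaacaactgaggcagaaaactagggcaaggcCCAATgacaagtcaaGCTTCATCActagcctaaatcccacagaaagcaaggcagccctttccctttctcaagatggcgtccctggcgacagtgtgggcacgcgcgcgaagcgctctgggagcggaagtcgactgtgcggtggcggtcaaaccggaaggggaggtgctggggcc
Psma8: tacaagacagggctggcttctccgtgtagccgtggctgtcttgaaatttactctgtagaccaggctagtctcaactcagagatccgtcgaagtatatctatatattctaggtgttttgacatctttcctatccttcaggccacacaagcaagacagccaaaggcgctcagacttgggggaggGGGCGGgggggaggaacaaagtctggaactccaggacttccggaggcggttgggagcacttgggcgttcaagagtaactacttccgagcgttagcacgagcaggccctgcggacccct
Psmg4: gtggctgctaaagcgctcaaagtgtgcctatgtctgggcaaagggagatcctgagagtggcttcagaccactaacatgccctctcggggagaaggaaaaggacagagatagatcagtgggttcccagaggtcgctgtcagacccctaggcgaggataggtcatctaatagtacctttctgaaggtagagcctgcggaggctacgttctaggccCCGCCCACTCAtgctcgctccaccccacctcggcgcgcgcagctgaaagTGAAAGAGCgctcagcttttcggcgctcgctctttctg

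Psmd7 held CCAAT once on each strand and TGANNNNGC on the reverse strand, Psma8 held GGGCGG alone, and Psmg4 held TGANNNNGC on both strands, with the reverse match overlapping a reverse GGGCGG. Windows were given for 35 of the 39 members. TGANNNNGC was found in 20 of them (57.1%, against 40.5% of all 33469 promoter windows of the table), CCAAT in 18 (51.4%, against 37.5%) and GGGCGG in 26 (74.3%, against 33.1%). These are letter matches in a short window and describe the sequence only.

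The alpha ring had a median difference of -0.53 in knockdown cells, with 2 members above 0 and 6 below. Over all genes the median was -0.17, with 5116 above 0 and 7166 below. All alpha members but Psma8 were in the brightest of 4 equal classes of genes by mean level. In that class the median over all genes was -0.65. Psma8 had levels of -1.46 on the overexpression array, -1.50 on its negative control, -3.10 on the knockdown array, -1.04 on the knockdown negative control and -0.82 on the normal array. Its difference was -2.06 (95% interval -2.47 to -1.66), and the knockdown array was the lowest of the 5. This call rests on the brightest of 3 probes: the second differed by -0.72, the third was above background on only 1 array, and the mean over the probes gave -1.06, short of 2.5-fold. At the other end of the ring, Psma1 had levels of 3.24, 3.31, 3.76, 3.13 and 3.37 in the same order of arrays, a difference of 0.63 in knockdown cells. Psma3 had levels of 1.60, 1.79, 0.53, 1.31 and 1.51 in that order and lay lowest on the knockdown array, by 0.78 relative to its control.

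Among the beta subunits, 2 were above 0 and 5 below in knockdown cells, with a median of -0.31. The 3 catalytic subunits did not go one way. Psmb7, which carries the trypsin-like site, had levels of 1.96 on the overexpression array, 2.07 on its negative control, 3.12 on the knockdown array, 2.03 on the knockdown negative control and 1.43 on the normal array. It was highest on the knockdown array, with a difference of 1.09 (2.13-fold; 95% interval 0.69 to 1.49). Psmb6, with the caspase-like site, differed by 0.56, and Psmb5, with the chymotrypsin-like site, by -0.31. The non-catalytic Psmb1 was the lowest of the ring at -0.53, with levels of 1.52, 1.03, 1.54, 2.07 and 1.85 in the same order of arrays; its knockdown level was close to that of the overexpression array.

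In the cap, the base had a median difference of -0.39 in knockdown cells (quartiles -0.84 and 0.63, 4 members above 0 and 5 below). The lid had a median of 0.90 (quartiles 0.16 and 1.01, 5 above and 2 below), and the values of base and lid overlapped. Psmd7 had levels of -0.21 on the overexpression array, -0.52 on its negative control, 1.45 on the knockdown array, -0.32 on the knockdown negative control and -0.68 on the normal array. The knockdown array stood above all others, and the difference from its control was 1.77 (95% interval 1.37 to 2.17). The 3 lid subunits that came next were Psmd13 (2.15-fold higher), Psmd14, the deubiquitinase of the lid (1.90-fold), and Psmd3 (1.86-fold), none of them past 2.5-fold. The lid subunit Psmd6 went the other way, with levels of 5.93, 5.93, 4.36, 5.34 and 4.64 in the same order of arrays and a difference of -0.98. Its knockdown level was the lowest, next to the normal array.

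The ATPases of the base lay on both sides of 0. Psmc3 had levels of 1.12 on the overexpression array, 0.52 on its negative control, 2.39 on the knockdown array, 1.16 on the knockdown negative control and 0.95 on the normal array, a knockdown difference of 1.23 (2.34-fold). Psmc6 had levels of -0.68, -1.34, -1.15, -0.07 and -0.97 in that order, a knockdown difference of -1.08, in which the control rather than the knockdown array was the one that stood apart from the rest. Psmc2, the lowest base subunit in overexpression cells, had levels of 5.16, 5.42, 3.94, 4.76 and 4.79. Of the large scaffold subunits, Psmd2, which binds ubiquitin-like domains, differed by -1.07 and Psmd1 by -0.39, while the ubiquitin receptor Psmd4 differed by 0.79.

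The chaperones and regulators held equally opposed members. Psmg4 had levels of 2.45 on the overexpression array, 2.72 on its negative control, 0.97 on the knockdown array, 2.48 on the knockdown negative control and 1.64 on the normal array. The knockdown array was the lowest, with a difference of -1.51 (95% interval -1.91 to -1.11), and a second probe of the gene gave -1.07. Psmd5, a chaperone of the base, lay just short of the threshold in the other direction, at 1.29 (2.44-fold), with levels of 0.51, 0.76, 1.83, 0.54 and 1.04 in the same order. Psme3, a nuclear activator of the core, had levels of 1.27, 1.84, 2.62, 1.54 and 0.83, the highest on the knockdown array. Its knockdown difference was 1.08 (95% interval 0.95 to 1.21). That interval combines the scanner's error of 10 spots as if they were independent, and the SD between the spots does not enter it. Psmf1, a protein that inhibits the core in vitro, had levels of 2.42, 2.43, 0.86, 1.97 and 1.23, a knockdown difference of -1.11.

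**Figure D2:**
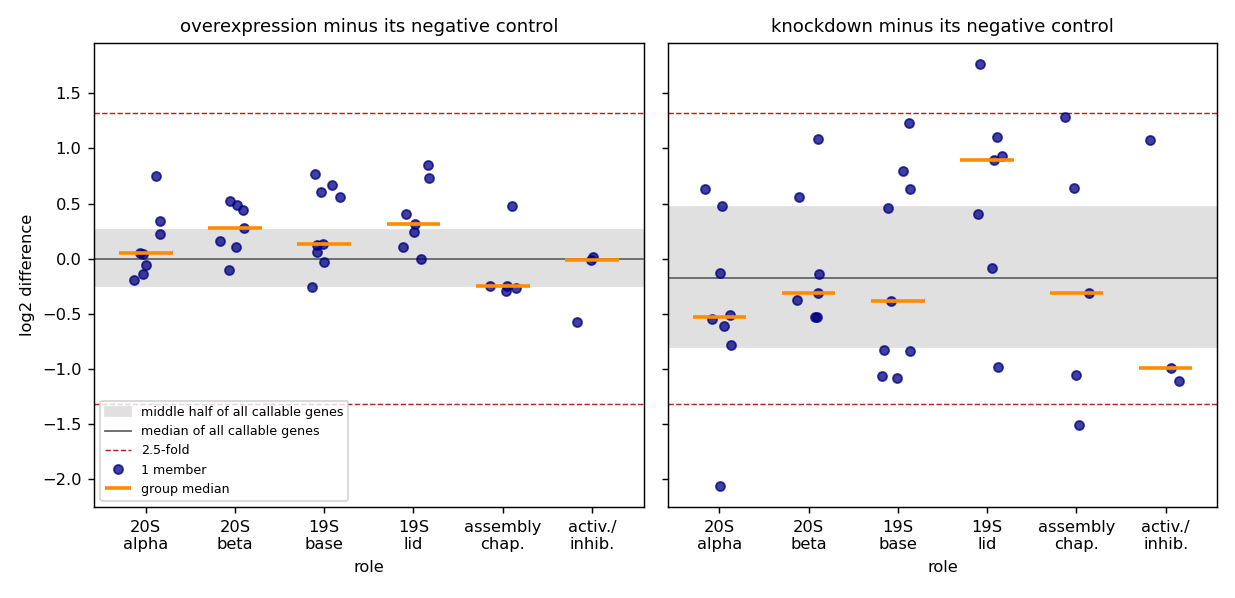
Log2 difference of each member (points) from the matching negative control, by role, for overexpression (left) and knockdown (right). The orange bar is the group median, the grey band the range between the lower and upper quartile of all callable genes, and the dashed lines 2.5-fold; in the knockdown panel the lid median is 0.90 and the alpha-ring median -0.53.

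For 3 further genes, different probes disagreed in sign or size, and the choice of probe sets the value. The brighter Psmf1 probe gave -1.11 in knockdown cells and the dimmer one 0.86. The brighter Psme4 probe, printed in replicate, gave -0.99 and the dimmer one 1.27. Psme4, which encodes a large activator of the core, read 2.35 on the overexpression array, 2.34 on its negative control, 0.79 on the knockdown array, 1.78 on the knockdown negative control and 0.97 on the normal array with the brighter probe. For Psmd9, another chaperone of the base, the brighter probe gave -1.05 and the dimmer one 0.05. Its levels with the brighter probe were 2.71, 2.96, 1.56, 2.62 and 2.15 in the same order. In overexpression cells the brighter Psmd9 probe gave -0.25 and the dimmer one 0.81. All 6 of these probes were well above background on every array. Which transcripts each probe detects was not tested.

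**Figure D3:**
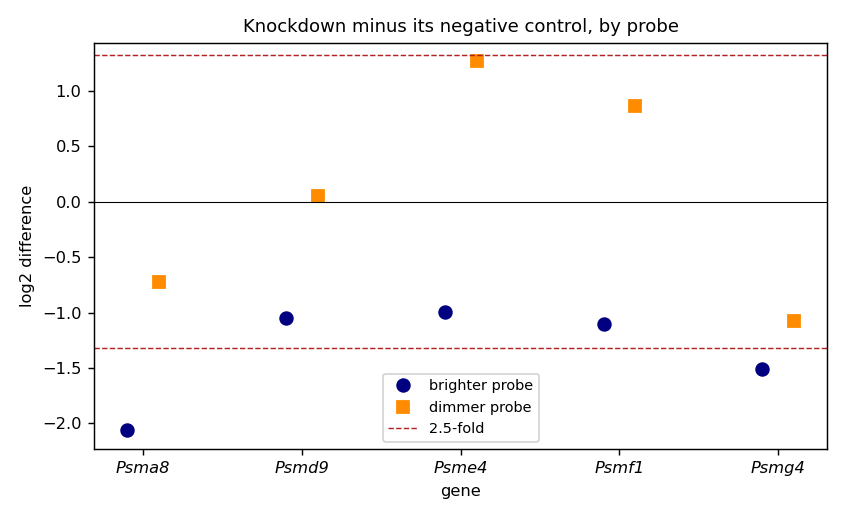
Log2 difference of knockdown from its negative control for the 5 members with more than 1 probe, shown for the brightest probe (circles) and the next (squares). The 2 probes of Psme4, of Psmf1 and of Psmd9 (-1.05 and 0.05) fall on opposite sides of 0, and those of Psmg4 and Psma8 on the same side.

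Signal strength moved together with these values. The knockdown array was the brightest of the transduced arrays, and its difference from its control was lower for the brightest probes. All genes were put into 4 equal classes by mean level. The median difference was -0.65 in the brightest class, -0.04 in the next, -0.03 in the third and 0 in the dimmest. The 31 members of the brightest class had a median of -0.38, and the 8 members of the next had a median of 0.60. The other 2 classes held no member. Over the 39 members, mean level and knockdown difference had Pearson's r of -0.31 and Spearman's rho of -0.37, where all points share both arrays. In other comparisons Pearson's r was -0.28 for overexpression against its negative control, 0.59 between the overexpression and the knockdown negative controls, 0.55 between the overexpression negative control and normal, and 0.05 between the knockdown negative control and normal. The part of signal strength in the result was not tested.

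The sign of the core median changed with the scaling of the arrays. That median difference was -0.38, 0.20 below the median of all genes. After quantile normalization it was 0.20, which is 0.32 above the median of all genes. The cap median was 0.43, 0.61 above that of all genes, and it stayed above under every setting tried (0.52 to 1.18). The cap was not raised as a whole. Its members had quartiles of -0.83 and 0.91, with 9 above 0 and 7 below. The median was 0.90 for the lid and -0.39 for the base. These medians were not computed under the other scalings. By mean level, the brightest cap members were Psmd6 of the lid and Psmc2, Psmc5, Psmd2 and Psmd1 of the base (4.74 to 5.24). They differed by -0.98, -0.83, -0.84, -1.07 and -0.39. Of the other cap members, only Psmc6 (-1.08) and Psmd12 (-0.08) lay below 0. Whether role or signal strength goes with the split was not tested. Set against the other arrays, knockdown had 15 members past 2.5-fold from the overexpression negative control, where 29.7% of genes were, and 8 from normal, where 30.5% were. With the matching control, the number of members past 2.5-fold ranged from 1 with the mean of a gene's probes to 9 with the authors' deposited table. In each of the 6 settings that change the members' values, Psmd7 was past 2.5-fold; Psma8 was in 5 (all but the mean of probes), and Psmg4 in 1 (the normexp background). Psmb7, Psmc3, Psmd5 and Psme3 were past it, as higher, in 4 of the 6.

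**Figure D4:**
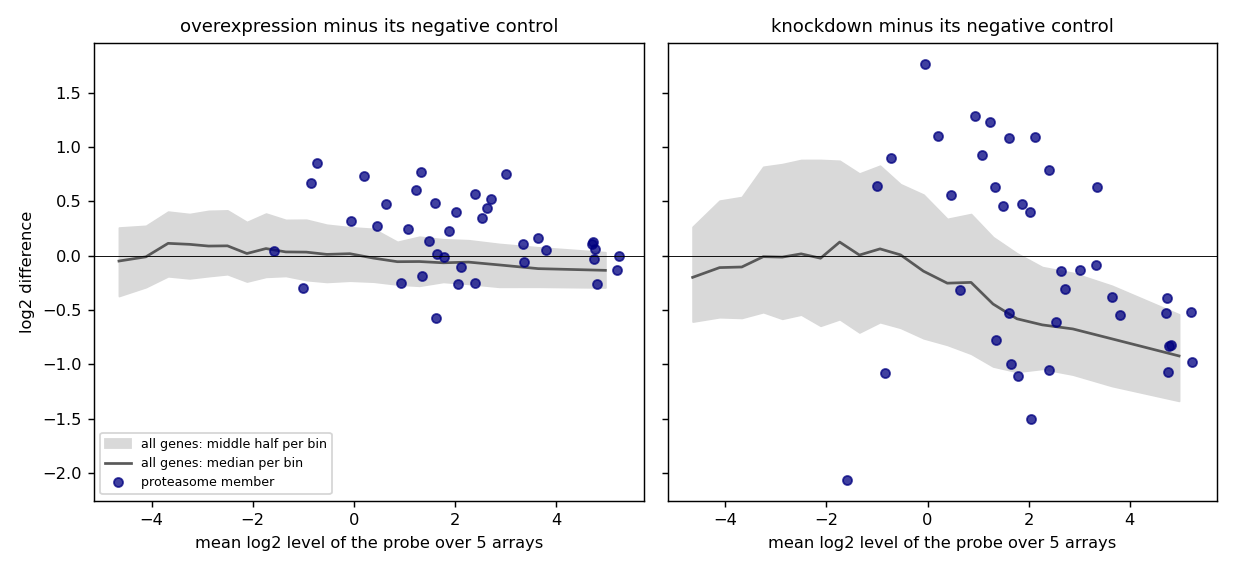
Log2 difference from the matching negative control (vertical axis) against the mean log2 level of the probe over the 5 arrays (horizontal axis) for the 39 members (points), with the median and the quartiles of all genes per bin of brightness (line and band), for overexpression (left) and knockdown (right). The knockdown line falls over the brighter bins only, to -0.92 in the last. Over the brightest of 4 equal classes the median of all genes is -0.65.

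In overexpression cells, no member was past 2.5-fold against the overexpression negative control, where 2.72% of the 11794 callable genes were (1.71% higher and 1.01% lower). At 1.5-fold, 6 members were higher and 0 lower, where 18.8% of all genes were past it (10.7% higher and 8.14% lower). The 6 were Psmd3 at 0.85 (1.81-fold; 95% interval 0.45 to 1.26), Psmc4 at 0.77, Psma7 at 0.75, Psmd13 at 0.74, Psmc6 at 0.67 and Psmc3 at 0.60. The median was 0.17 for the core and 0.28 for the cap, against 0.00 for all genes. Relative to the median of all genes and with the knockdown negative control in place of the matching one, the core median was 0.11 and the cap median 0.12.

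All 6 genes were also lower on the overexpression negative control than on the knockdown negative control. That difference between the control viruses was -1.39 for Psmd3, -1.28 for Psmc6, -1.12 for Psmd13, -1.07 for Psmc4, -0.95 for Psma7 and -0.64 for Psmc3. Both comparisons share the overexpression negative control. Set against the knockdown negative control, the overexpression array differed from it by -0.61 for Psmc6, -0.53 for Psmd3, -0.38 for Psmd13, -0.31 for Psmc4, -0.20 for Psma7 and -0.04 for Psmc3. The 6 were chosen for being high against the first control, and an SE of about 0.20 from the scanner stands beside each of these differences. With that array in the place of the matching control, 0 members were past 2.5-fold, where 4.08% of genes were. With the normal array, 2 were (Psmd4 and Psme4, both higher), where 16.6% of genes were. The Psme4 call rests on its brighter probe. The dimmer Psme4 probe had levels of 0.19 on the overexpression array and 0.001 on the normal array. Psmd4 had levels of 2.96 on the overexpression array, 2.40 on its negative control, 3.0 on the knockdown array, 2.21 on the knockdown negative control and 1.42 on the normal array, which was the lowest.

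The values on single arrays show where these differences lie. Psmd3, a scaffold subunit of the lid, had levels of -1.10 on the overexpression array, -1.96 on its negative control, 0.33 on the knockdown array, -0.57 on the knockdown negative control and -0.35 on the normal array. Psmc4, an ATPase of the base, had levels of 1.24, 0.47, 2.18, 1.55 and 1.20 in that order, and Psma7, of the alpha ring, 3.19, 2.44, 3.25, 3.38 and 2.79. In all 3 the overexpression negative control was the lowest array. Psmb5 was the most raised beta subunit, at 0.52, with levels of 3.13, 2.61, 2.72, 3.03 and 2.06. Of the chaperones, Psmd10, an oncoprotein also called gankyrin, was highest at 0.48 (levels 0.90, 0.43, 0.62, 0.93 and 0.31), and Psmg2, a chaperone of the alpha ring, lowest at -0.30 (levels -1.49, -1.20, -0.22, -0.86 and -1.25). Psme3 was the lowest of all members, at -0.57 (95% interval -0.70 to -0.45).

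The control arrays give a measure of how far members lie apart without altered Tmub1. Between the overexpression negative control and the knockdown negative control, 1 member was past 2.5-fold, Psmd3, which was 2.61-fold lower. Of the 11820 callable genes, 8.6% were past it, 5.22% as lower. This count uses the brightest probe of each gene. The dimmer Psmd9 probe differed by -1.98, also past 2.5-fold, while the brighter one differed by 0.34. At 1.5-fold, where 38.7% of genes were (18.9% higher and 19.8% lower), 5 members were higher and 9 lower. The call of Psmd3 was lost after quantile normalization, with normexp, in the authors' deposited table and with cyclic loess.

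Against normal cells, the overexpression negative control had 2 members past 2.5-fold, where 17.5% of the 13450 callable genes were (7.6% higher and 9.93% lower). Psme4 was 2.58-fold higher with the brighter probe, a difference of 1.36, while its dimmer probe differed by 0.28. Psmd3 was 3.04-fold lower. The knockdown negative control had 0 members past 2.5-fold with the brightest probe of each gene, where 16.6% of the 13498 callable genes were. This rests on the choice of probe. The second Psma8 probe differed by -1.49 (brightest probe -0.22) and the dimmer Psmf1 probe by 1.36 (brighter probe 0.74), both past 2.5-fold. On the brightest probes, its members had a median difference of 0.46 from normal, with 30 above 0 and 9 below. Over all genes the median was -0.07, with 5976 above 0 and 7140 below. Most members are bright: in the brightest of the 4 classes their median was 0.48, against 0.30 for all genes, and for the overexpression negative control against normal it was 0.55, against 0.57 for all genes. The core median was 0.43 and the cap median 0.35 there, against -0.07 and 0.25 between the overexpression negative control and normal. These comparisons share the normal array. The fast muscle and leukocyte markers, scan session and virus move with them, and their part in the result was not tested.

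The interferon-inducible genes, which replace the standard beta subunits or form an activator in immune and cytokine-treated cells, had a median difference of -1.11 in knockdown cells. All 5 lay below the knockdown negative control, and 2 of the 5 fell past 2.5-fold. Over all callable genes the median was -0.17, 7166 of 12656 lay below 0, and 18.7% were past 2.5-fold, 10.1% as lower. In the brightest of the 4 classes of genes the median was -0.65. The other scalings and settings were not applied to these 5 genes, and the part of signal strength in their values was not tested. Psme2, a subunit of the interferon-inducible activator, had levels of 5.11 on the overexpression array, 4.42 on its negative control, 2.63 on the knockdown array, 4.50 on the knockdown negative control and 2.91 on the normal array, and fell 3.65-fold in knockdown cells. Psmb10, the counterpart of Psmb7, had levels of 2.65, 2.40, 0.87, 2.28 and 1.46 and fell 2.65-fold. Psme1, the partner of Psme2, differed by -1.11 (levels 4.86, 4.57, 3.45, 4.56 and 3.49). Psmb8, the counterpart of Psmb5, differed by -0.71 (levels -3.12, -2.77, -2.58, -1.87 and -4.08), and Psmb9, the counterpart of Psmb6, by -0.17 (levels 0.50, 0.20, 0.06, 0.23 and -1.49).

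For Psme1 and Psme2, knockdown minus normal was -0.04 and -0.28, while the other 3 transduced arrays lay above both. For the other 3 genes, knockdown minus normal was 1.5 (Psmb8), 1.54 (Psmb9) and -0.59 (Psmb10). Against normal, all 5 genes were higher on both negative controls, by 0.94 to 1.69 for the overexpression negative control and by 0.81 to 2.21 for the knockdown negative control. Leukocyte markers, which mark cells that express these genes strongly, were well above background for 1 of 3 on the normal array (Cd74, at a level of -6.09), with a log2 summed level of -5.23. Their log2 summed level was 2.54 on the knockdown array against 2.81 on its control, and their part in the result was not tested.

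**Figure D5:**
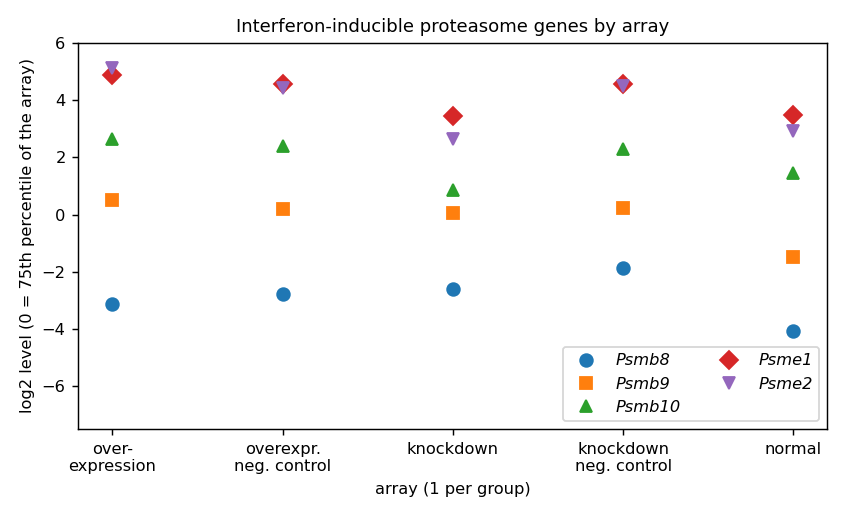
Log2 level of the 5 interferon-inducible proteasome genes on each array (1 per group; 0 is the 75th percentile of the array). Heights compare arrays for 1 gene and not genes with each other; Psme2 reads 2.63 on the knockdown array, against 4.50 on its negative control.

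Other genes of the pathway were taken from a list of which 28 were measured and enter the counts, the interferon-inducible genes among them; values are printed for those past 2.5-fold, for Nfe2l1, Pomp and the interferon-inducible genes. In overexpression cells, 1 of 27 callable genes rose past 2.5-fold and 0 fell, or 3.70% against the 2.72% of all genes. This was Mafg, a small Maf partner of Nfe2l1 and Nfe2l2 (2.95-fold). Its level was 0.31 on the overexpression array and -1.25 on that array's negative control, which was the lowest of the 5, against 0.64 on the knockdown negative control. In knockdown cells, 1 of 28 rose and 3 fell, or 14.3% against the 18.7% of all genes. Mafk, another small Maf, rose 3.47-fold, a log2 difference of 1.79, to a level of -2.21 on the knockdown array; it was above background on 3 arrays. Rps27a, which encodes ubiquitin fused to a ribosomal protein, fell 2.73-fold, with 4.38 on the knockdown array and 5.83 on its control. The other 2 that fell were Psme2 and Psmb10. Short of the threshold, the differences in knockdown cells ran from -1.12 (Uba1, the ubiquitin-activating enzyme) to 1.28 (Vcp, an ATPase that unfolds ubiquitinated proteins).

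Nfe2l1 had levels of 1.63 on the overexpression array, 2.14 on its negative control, 0.82 on the knockdown array, 1.65 on the knockdown negative control and -0.03 on the normal array. It differed by -0.52 in overexpression cells and by -0.82 in knockdown cells, neither past 2.5-fold, and it was 4.50-fold higher on the overexpression negative control and 3.19-fold higher on the knockdown negative control than on the normal array. Pomp, the chaperone of core maturation, stayed within 0.52 over the 5 arrays, with levels of 3.75, 3.71, 3.45, 3.63 and 3.24.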

How the data were processed

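The files hold 5 one-colour Agilent scanner outputs, 1 per group, with 42877 non-control spots each and 0 saturated. The image software was Agilent Feature Extraction, version 11.0.1.1 per the file headers and 9.1 per the submitters' processing notes. The deposited processed signal is an intensity on a linear scale, corrected for background within each array by that software and not scaled between arrays. The authors' deposited table holds log2 values, with equal quartiles on all 5 arrays; its normalization software is not given in the sources.

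For this work, control and outlier spots were left out, spots of a probe averaged, log2 taken and the array's 75th percentile subtracted. Of 30367 probes, 18005 matched 1 gene through the accession in the RefSeq table and 12362 are unnamed here. These gave 15167 genes with a value, 2600 of them with more than 1 probe, read from the probe with the highest mean. A call needed 2.5-fold, the brighter value well above background, and the dimmer one raised to the array's lowest well-above-background spot where it lay under that. The medians over all genes use the values so bounded. No test was run, since each group has 1 array. The calling steps were tested on simulated data.

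Alternatives were quantile normalization, the 75th percentile over probes above background on all arrays, normexp (offset 50, limma 3.58.1 in R 4.3.3, on the median pixel signal because the mean is not in the files), the authors' deposited table, averaging a gene's probes, only genes above background on all arrays, other thresholds and other control arrays. Cyclic loess was added after seeing the data. From the pathway list, 2 genes are not reported here and enter none of its counts. Members, pathway lists, marker lists and motifs were chosen with earlier results of these data known. Values on every array are given for members past 2.5-fold in any of the 5 comparisons (each virus against its control, the controls against each other, and each control against normal), for the extremes of each role group in the overexpression and knockdown comparisons, and for members whose probes differ by over 1 on the log2 scale. Python 3.11.15 was used.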

Additional observations from a re-analysis of the deposited data

How the results depend on the processing

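No paired analysis was possible because each group has 1 array and all 5 are numbered replicate 1. For members past 2.5-fold in knockdown against its negative control (3), other settings gave 8 with quantile normalization, 7 with the percentile over detected probes, 9 with the authors' deposited table, 1 with the mean of probes, 6 with cyclic loess, 15 against the overexpression negative control and 8 against normal. At 1.5-fold there were 24 and at 2-fold 12, by construction of the lower threshold. The core median relative to all genes (-0.20) became 0.32 with quantile normalization, 0.10 with normexp, 0.29 with the authors' deposited table, 0.33 with cyclic loess, 0.55 against the overexpression negative control and 0.44 against normal. The cap median (0.61) became 1.02, 0.91, 1.03 and 0.87 under the same first 4 settings, and 1.18 against normal. The median of all genes in this comparison was -0.17, and between -0.42 (normexp) and 0.09 (percentile over detected probes) under other scalings. For overexpression against its negative control (0 members), 6 were past 1.5-fold and 2 were past 2.5-fold against normal, where the cap median (0.28) became 0.51. The overexpression negative control against the knockdown negative control (1) gave 2 with the percentile over detected probes, 0 with quantile normalization, normexp, the authors' deposited table and cyclic loess, 5 at 2-fold and 14 at 1.5-fold. The overexpression negative control against normal (2) gave 1 under quantile normalization, the percentile over detected probes, the authors' deposited table, the mean of probes and cyclic loess, 0 with normexp, 8 at 2-fold and 20 at 1.5-fold. Its core median (-0.02) became -0.35 with quantile normalization, -0.36 with the authors' deposited table and -0.38 with cyclic loess. Its cap median (0.296) became 0.0815 with quantile normalization and 0.0767 with the authors' deposited table, and turned sign to -0.0167 with cyclic loess. The knockdown negative control against normal (0) gave 1 at 2-fold and 18 at 1.5-fold, and its core median (0.50) became 0.29 with quantile normalization and 0.19 with cyclic loess. Except for the thresholds, the cause was not tested. With 1 array per group, no spread between cultures enters any value, and the scanner's interval covers the spot alone.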
